A study of Mus musculus with 7 samples.

Results

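Transthyretin (Ttr) was examined together with 7 genes of the choroid plexus and roof plate, Clic6, Folr1, Kcne2, Htr2c, Lmx1a, Gdf7 and Otx2, in SLMAP3 KO and WT mouse embryos. These 8 genes were taken by symbol from a table of 25461 genes, and all 8 were found in it. They were chosen with earlier results of the same embryos known, so the difference in Ttr between KO and WT embryos is given as a description. RNA was sequenced from 3 KO embryos (KOAC8-6, KOAC10-5 and KOAC10-8) and 4 WT embryos (KOAC8-1, KOAC10-7, KOAC9-1 and KOAC10-2), with 1 library per embryo. All 7 were B6C3F1 animals at embryonic day 11.5, and RNA came from the body that was left after the tail was removed for genotyping. The KO is global. The floxed exon of Slmap was deleted with CMV-cre, the cre was then bred out, and heterozygous parents gave the embryos, so that every tissue lacked the long SLMAP3 isoform while the shorter SLMAP1 and SLMAP2 isoforms could still be made. The number after KOAC in the embryo names, here called the series number, is not explained in the labels.

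The choroid plexus is the epithelium that secretes cerebrospinal fluid into the brain ventricles. It arises at the dorsal midline of the neural tube from the roof plate and, in the forebrain, from the cortical hem, which are signalling centres that release BMP and WNT ligands. At midgestation the hindbrain plexus is only starting to form. Its epithelium makes transthyretin, which carries thyroxine and the retinol-binding protein, and the same protein is made by the fetal liver and the visceral yolk sac. A whole embryo therefore holds more than 1 possible source of Ttr RNA, and alpha-fetoprotein (Afp) and albumin (Alb) mark the liver source.

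The 8 genes are not clustered in the genome, apart from 1 pair. In the GENCODE M21 annotation of GRCm38, Kcne2 (chr16:92292389-92298129, plus strand) and Clic6 (chr16:92485736-92541243, plus strand) lie 187.6 kb apart. Folr1 lies at chr7:101858331-101870788 on the minus strand, Htr2c at chrX:146962513-147197277 on the plus strand and Lmx1a at chr1:167689237-167848741 on the plus strand. Gdf7 lies at chr12:8297918-8301954 on the minus strand. Otx2 lies at chr14:48657677-48673819 on the minus strand, on the same chromosome as Slmap but 22122.7 kb from it. The exons of Otx2 share 154 bases (3.6% of its exonic bases) with the antisense transcript Otx2os1 and 168 bases (4.0%) with Gm49154 on the same strand, and the library kit does not mark strand. None of the other 7 shares exonic bases with an overlapping gene.

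RefSeq promoter windows (GRCm38.p6, 250 bases before to 50 bases after a start site) were matched for 5 of the 8 genes, Kcne2, Htr2c, Lmx1a, Gdf7 and Otx2, and not for Ttr, Clic6 and Folr1. OTX2 is a homeodomain protein that binds the letters TAATCC, and these were searched on both strands. These 5 genes have 9 windows, and the letters occur in 1 of the 9, where they occur in 7.1% of 32817 mouse promoter windows. The upstream one of the 2 windows of Kcne2 and the window of Htr2c are shown because all KO values of both genes lay below all WT values, and a window of Otx2 because it is the one with a match. Capitals mark the match, which reads as GGATTA because it lies on the opposite strand. The Kcne2 window shown is chr16:92292139-92292438 (plus strand), that of Htr2c chrX:146962263-146962562 (plus strand) and that of Otx2 chr14:48665060-48665359 (minus strand). A match is a description of the letters only, and the absence of one in 300 bases says nothing of binding elsewhere.
Kcne2: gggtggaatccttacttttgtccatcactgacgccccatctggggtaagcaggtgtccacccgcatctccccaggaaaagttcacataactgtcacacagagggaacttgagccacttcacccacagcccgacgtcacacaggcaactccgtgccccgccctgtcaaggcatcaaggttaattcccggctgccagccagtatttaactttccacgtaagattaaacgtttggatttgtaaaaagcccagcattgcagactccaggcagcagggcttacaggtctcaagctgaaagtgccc
Htr2c: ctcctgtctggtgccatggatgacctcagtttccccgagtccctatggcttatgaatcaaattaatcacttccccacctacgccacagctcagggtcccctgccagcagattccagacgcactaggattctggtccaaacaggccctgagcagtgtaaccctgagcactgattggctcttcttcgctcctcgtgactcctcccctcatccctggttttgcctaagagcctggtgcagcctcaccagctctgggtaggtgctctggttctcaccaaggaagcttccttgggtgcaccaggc
Otx2: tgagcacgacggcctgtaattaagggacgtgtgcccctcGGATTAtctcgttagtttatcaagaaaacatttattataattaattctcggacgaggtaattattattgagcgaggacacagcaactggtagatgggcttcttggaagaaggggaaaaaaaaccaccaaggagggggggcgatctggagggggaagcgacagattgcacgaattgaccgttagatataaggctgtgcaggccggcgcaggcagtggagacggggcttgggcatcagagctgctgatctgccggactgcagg

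The libraries were deep for all but the lowest of these genes. The estimated counts on genes ran from 54400000 to 81900000 per embryo. The authors' mean of normalized counts over the embryos was 1950 for Ttr, 2264 for Otx2, 1097 for Lmx1a, 509 for Clic6 and 105 for Gdf7, but only 84.0 for Folr1, 77.1 for Kcne2 and 61.8 for Htr2c. Slmap itself, whose shorter isoforms are not deleted, stood at 16.0 to 19.6 FPKM (fragments per kilobase of transcript, scaled to depth) in KO embryos and 22.8 to 31.2 FPKM in WT embryos. Afp differed by 288-fold between the 7 embryos and was under 10 FPKM in KOAC10-5, KOAC10-7 and KOAC10-2, 1 KO and 2 WT embryos, so results on Ttr are given with and without these embryos.

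Ttr was the most abundant of the 8 genes in WT embryos and stood lower in every KO embryo. Its gene lies at chr18:20665280-20674321 on the plus strand. It measured 14.4 FPKM in KOAC8-6, 15.3 in KOAC10-5 and 15.1 in KOAC10-8, against 46.4 in the WT embryo KOAC8-1, 32.3 in KOAC10-7, 53.1 in KOAC9-1 and 35.3 in KOAC10-2. The groups do not overlap, and the KO embryos lie within a narrow band, their highest value being 1.07 times their lowest, while the WT embryos spread over 1.65-fold. KO embryos averaged 15 ± 0.504 FPKM (SD, n = 3) and WT embryos 41.8 ± 9.71 FPKM (SD, n = 4), which puts the KO level at 35.8% of WT, or 2.79-fold lower. On the log2(FPKM + 1) scale the difference was -1.40 (SE 0.17, 95% interval -1.79 to -1.0). Of the 16095 genes that averaged 1 FPKM or more, Ttr ranked 11 by p-value, and its p-value adjusted over all of them was 0.0891 (limma, Benjamini-Hochberg), which misses the threshold of 0.05. In a whole embryo, fewer cells of a type and less RNA per cell cannot be told apart.

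The difference in Ttr was seen within each series number that held both genotypes. In series 8, with 1 embryo of each, Ttr was 3.23-fold higher in the WT embryo. In series 10, with 2 of each, the mean was 15.2 FPKM in KO embryos against 33.8 FPKM in WT embryos, a 2.22-fold difference. Series 9 held only the WT embryo KOAC9-1, which had the highest Ttr of all.

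**Figure D1:**
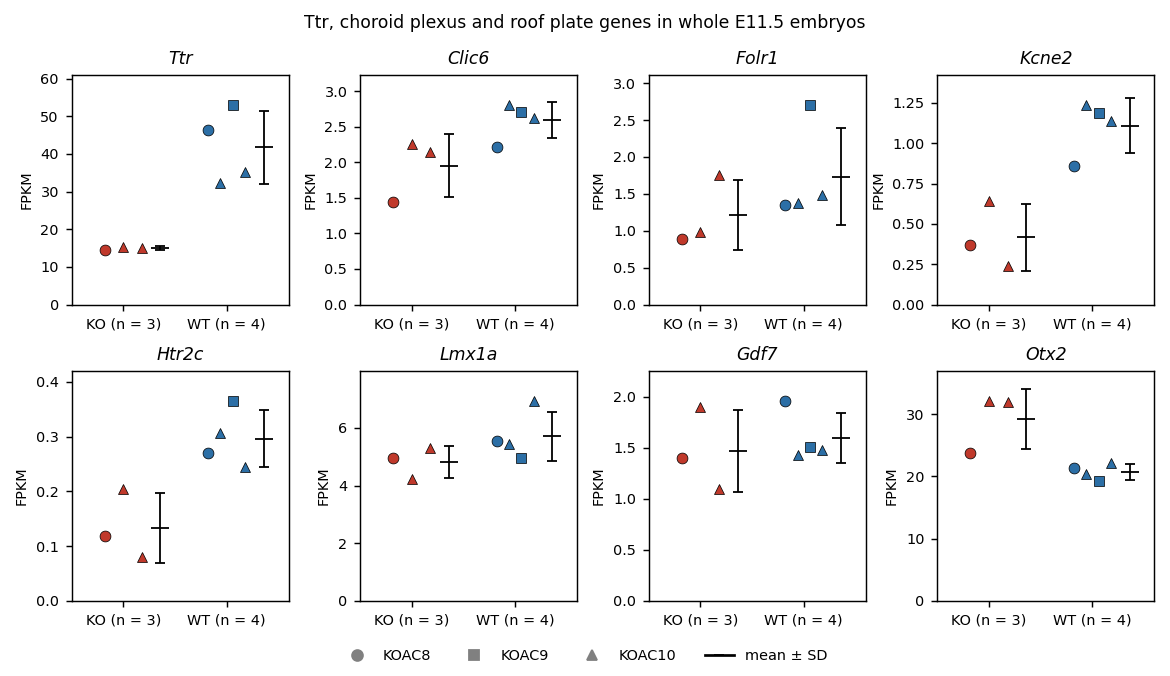
FPKM of the 8 genes (vertical axes, linear and from 0) in 3 KO embryos (red) and 4 WT embryos (blue), with the symbol giving the series number in the embryo name and the black bars the mean ± SD. The KO points of Ttr, Kcne2 and Htr2c all lie below the WT points, those of Otx2 lie above, and those of the other 4 genes overlap.

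Whether Ttr went with the liver was examined embryo by embryo against Afp, the main serum protein of the embryonic liver and yolk sac. Afp measured 255 FPKM in KOAC8-6, 5.18 in KOAC10-5 and 308 in KOAC10-8 among KO embryos. In WT embryos it measured 376 in KOAC8-1, 1.30 in KOAC10-7, 278 in KOAC9-1 and 2.49 in KOAC10-2. Afp thus splits each genotype into embryos with at least 255 FPKM and embryos with at most 5.18 FPKM, and the groups overlap.

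Within KO embryos Ttr did not move with Afp: KOAC10-5, with 5.18 FPKM of Afp, had 15.3 FPKM of Ttr, against 14.4 and 15.1 FPKM in the embryos with 255 and 308 FPKM of Afp. Among WT embryos the 2 with little Afp had the lower Ttr, 32.3 and 35.3 FPKM, and the 2 with much Afp the higher, 46.4 and 53.1 FPKM. Even the lower pair lies above every KO embryo, including KOAC8-6 and KOAC10-8 with their high Afp. Because the values of both genes fall into separate clusters (the largest gap between neighbours takes up 0.565 of the range of Ttr and 0.731 of that of Afp), no correlation over the 7 embryos was computed, and no cluster holds enough embryos for one.

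The Ttr difference was also computed with Afp in the model and without the embryos of low Afp. With log2 Afp as a covariate the difference was -1.47 on the log2 scale (adjusted p = 0.0374, limma), and without the 3 embryos of low Afp, a choice made after seeing the data, it was -1.68 (adjusted p = 0.0386, limma, 2 KO against 2 WT embryos). Over the 16 alternatives tried the difference ran from -1.68 to -1.27 and the adjusted p from 0.0374 to 0.282 (limma), so the call depends on the setting. The direction held in all 16, but most could not change it. Every KO value lies below every WT value, so leaving out embryos cannot reverse it. Another filter leaves the Ttr values as they are, and median-ratio scaling used the same factor, 1.00351, in every embryo.

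Other liver transcripts were examined in the same way. Alb measured 70.4, 1.63 and 65.2 FPKM in KOAC8-6, KOAC10-5 and KOAC10-8, and 180, 0.313, 136 and 0.885 FPKM in KOAC8-1, KOAC10-7, KOAC9-1 and KOAC10-2. Rbp4, the retinol carrier that binds transthyretin in serum, measured 26.5, 1.41 and 33.0 FPKM in the same KO embryos and 51.8, 1.97, 41.3 and 1.21 FPKM in the WT embryos. Both genes were high and low in the same embryos as Afp. Of 23 secreted proteins of liver and visceral endoderm, 22 were in the table and 20 were tested. None was called, none had an unadjusted p under 0.05 in either direction (limma), and none separated the genotypes. The summed level of the 22 ran from 55.4 to 752 FPKM in KO embryos against from 37.1 to 1178.7 FPKM in WT embryos. The hepatoblast transcription factors, which set up liver identity, had 0 calls among 6 tested of 10. At an unadjusted p under 0.05 (limma), 2 were higher, Onecut1 and Foxa2 (log2 differences 0.40 and 0.30), where 5.27% of all genes tested were. Neither went with Afp across the embryos. They measured 3.37 and 2.65 FPKM in KOAC10-5, where Afp was low, and 2.61 and 2.31 FPKM in KOAC8-1, where it was high. Hnf4a, at 0.0332 FPKM in KOAC10-5 and 2.45 FPKM in KOAC8-1, differed by -0.03 (adjusted p = 0.985, limma). Genes of the yolk sac visceral endoderm were low in FPKM, at a mean of at most 1.5 FPKM (Lrp2), with 0 calls among 2 tested of 6. Lrp2 was not short of counts, at a mean of 1561.2 normalized counts. KO embryos lay wholly above WT embryos in 1 of the 6, Lrp2, against 4.68% of all genes in the table. Its log2 difference was 0.18 (adjusted p = 0.516, limma).

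The distance of each gene's profile from that of Ttr was measured as the root mean square difference of the centred log2(FPKM + 1) values over the 7 embryos. A flat gene would lie at 0.724. Afp lay at 3.245, Alb at 2.906 and Rbp4 at 1.985, but Afp has an SD of 3.43 over the embryos on this scale against 0.78 for Ttr, so that it lies far from Ttr whatever its shape. Aqp1, a water channel of the choroid plexus and of red blood cells, lay at 0.432 and Kcne2 at 0.489. Folr1 followed at 0.585, Clic6 and Kcnj13 at 0.609, Htr2c at 0.628, Wfikkn2 at 0.646, Lmx1a at 0.667 and Gdf7 at 0.688. Otx2, which differs between the genotypes in the other direction, lay at 0.960. Only these chosen genes are placed here. Genes of muscle and red blood cells lay closer to Ttr than any of them, such as Acta1 at 0.222 and Hbb-bt at 0.3. The measure reflects amplitude as well as shape, and genes of small amplitude lie near the value of a flat gene, so it is given as a description over 7 embryos that share their 2 genotypes and does not tell which source Ttr follows.

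**Figure D2:**
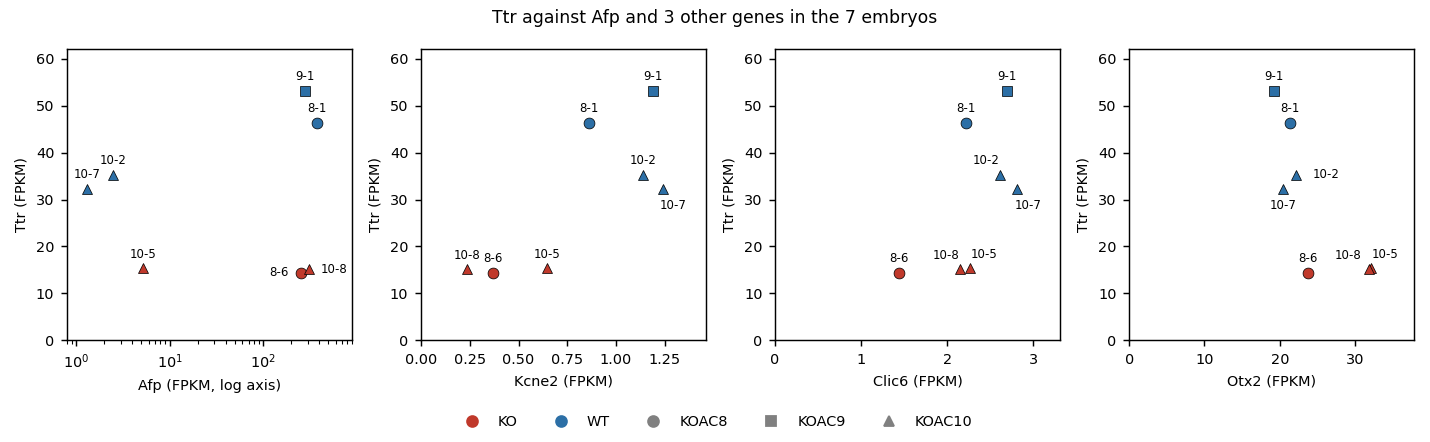
Ttr (vertical axis, FPKM) against Afp (FPKM, log axis), Kcne2, Clic6 and Otx2 (FPKM, linear axes) in the 7 embryos, KO in red and WT in blue, labelled by the numbers in the embryo names. The 3 KO embryos lie at 14.4 to 15.3 FPKM of Ttr at both ends of the Afp axis, from 5.18 to 308 FPKM, and left of every WT embryo on the Kcne2 axis.

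Kcne2 also stood lower in every KO embryo. It encodes a small accessory subunit of potassium channels that sits in the apical membrane of the choroid plexus epithelium. It measured 0.371 FPKM in KOAC8-6, 0.645 in KOAC10-5 and 0.237 in KOAC10-8, against 0.861 in KOAC8-1, 1.24 in KOAC10-7, 1.19 in KOAC9-1 and 1.14 in KOAC10-2. Every KO embryo lies below every WT embryo. KO embryos averaged 0.418 ± 0.208 FPKM (SD, n = 3) and WT embryos 1.11 ± 0.171 FPKM (SD, n = 4), 37.7% of WT or 2.65-fold lower. WT levels were 2.32-fold those of KO in series 8 and 2.70-fold in series 10.

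Htr2c, the serotonin receptor 2C that is abundant in the mature plexus, was the lowest of the 8 genes. It measured 0.119, 0.205 and 0.0796 FPKM in the KO embryos KOAC8-6, KOAC10-5 and KOAC10-8, and 0.270, 0.307, 0.365 and 0.244 FPKM in the WT embryos KOAC8-1, KOAC10-7, KOAC9-1 and KOAC10-2. The groups again do not overlap, with KOAC10-5 the highest of the KO embryos for Kcne2 and Htr2c alike. The mean was 0.134 ± 0.0639 FPKM (SD, n = 3) against 0.296 ± 0.0523 FPKM (SD, n = 4), 45.4% of WT.

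Both genes average under 1 FPKM and were left out of the filtered test. In the fit of all 25461 genes without a filter, in which 0.0275% of genes were called, Kcne2 differed by -0.58 on the log2(FPKM + 1) scale (SE 0.11, 95% interval -0.85 to -0.31, adjusted p = 0.334, limma). Htr2c differed by -0.19 (SE 0.05, 95% interval -0.31 to -0.07, adjusted p = 0.373, limma), and neither passed. Adding 1 FPKM shrinks differences of genes this low. With 0.1 FPKM added in its place the differences were -1.29 for Kcne2 and -0.78 for Htr2c (adjusted p = 0.343 and 0.39, limma), and neither passed there. The lowest values of both, in KOAC10-8, rest on 24.5 and 23.6 estimated counts. Htr2c lies on the X chromosome, and with log2 Xist, the transcript of the inactive X chromosome, as a covariate its difference stayed at -0.19.

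Clic6 and Folr1 leaned the same way, with groups that overlap. Clic6, a chloride intracellular channel family member enriched in the plexus, measured 1.44, 2.26 and 2.15 FPKM in KOAC8-6, KOAC10-5 and KOAC10-8 and 2.22, 2.81, 2.70 and 2.62 FPKM in KOAC8-1, KOAC10-7, KOAC9-1 and KOAC10-2. The KO embryo KOAC10-5 lies above the WT embryo KOAC8-1. The mean was 1.95 ± 0.443 FPKM (SD, n = 3) against 2.59 ± 0.257 FPKM (SD, n = 4), 75.4% of WT, with a log2 difference of -0.29 (SE 0.12, adjusted p = 0.436, limma). Without KOAC8-6 the difference was -0.16.

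Folr1, the folate receptor that carries folate across the plexus into cerebrospinal fluid, measured 0.892, 0.981 and 1.76 FPKM in the same KO embryos and 1.35, 1.38, 2.71 and 1.48 FPKM in the WT embryos. KOAC10-8 exceeds 3 of the 4 WT embryos, and KOAC9-1 stands far above the rest of its group. The log2 difference was -0.30 (SE 0.21, 95% interval -0.79 to 0.19, adjusted p = 0.603, limma). It was -0.14 without KOAC9-1, -0.20 without KOAC8-6 and -0.47 without KOAC10-8. WT levels were 1.51-fold those of KO in series 8 and 1.05-fold in series 10. Slc19a1 and Slc46a1, the general folate carriers, differed by 0.15 and -0.12 on the log2 scale (adjusted p = 0.482 and 0.562, limma). Of the 4 folate transport genes, Folr1 among them, 3 were tested and 0 were called, with 0 at an unadjusted p under 0.05.

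The transcription factor and ligand of the roof plate showed small differences. Lmx1a, the LIM homeodomain factor that specifies roof plate and cortical hem, measured 4.95, 4.22 and 5.29 FPKM in KOAC8-6, KOAC10-5 and KOAC10-8 and 5.53, 5.44, 4.95 and 6.93 FPKM in KOAC8-1, KOAC10-7, KOAC9-1 and KOAC10-2. The groups overlap, and the log2 difference was -0.20 (SE 0.12, 95% interval -0.48 to 0.07, adjusted p = 0.539, limma). It was -0.12 without KOAC10-2, -0.13 without KOAC10-5 and -0.03 without the 3 embryos of low Afp. Gdf7, a BMP family ligand made by the roof plate, measured 1.40, 1.90 and 1.10 FPKM in the KO embryos and 1.96, 1.43, 1.51 and 1.48 FPKM in the WT embryos. KO embryos hold the lowest and the second highest value, and the log2 difference was -0.08 (SE 0.13, 95% interval -0.40 to 0.23, adjusted p = 0.840, limma). The intervals leave room for differences in Lmx1a and Gdf7 of the size measured for Clic6.

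Otx2 was the gene of the 8 that was higher in KO embryos. It encodes a homeodomain factor of the forebrain, midbrain and eye that is also needed for the choroid plexus to form. It measured 23.7, 32.1 and 31.9 FPKM in KOAC8-6, KOAC10-5 and KOAC10-8, against 21.3, 20.4, 19.2 and 22.1 FPKM in KOAC8-1, KOAC10-7, KOAC9-1 and KOAC10-2. Every KO embryo lies above every WT embryo, KOAC8-6 only by the gap from 22.1 to 23.7 FPKM. KO embryos averaged 29.2 ± 4.82 FPKM (SD, n = 3) and WT embryos 20.7 ± 1.25 FPKM (SD, n = 4), 1.41-fold higher, with a log2 difference of 0.46 (SE 0.11, 95% interval 0.20 to 0.73, adjusted p = 0.286, limma). The ratio of KO to WT was 1.11 in series 8 and 1.51 in series 10.

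Over the 8 genes, 0 of the 6 tested were called at an adjusted p under 0.05 (limma), as were 0.0373% of all genes tested. At an unadjusted p under 0.05, 2 of the 6 were lower in KO embryos (Ttr and Clic6), where 6.19% of all genes tested were, and 1 was higher (Otx2), where 5.27% were. KO embryos lay wholly below WT embryos in 3 of the 8, against 5.43% of the genes in the table, and wholly above in 1 of the 8, against 4.68%. The median log2 difference of the 6 tested was -0.25, beside 0.01 over all genes tested. Ttr is in these counts, and its difference was known when the genes were chosen. The other 7 were also chosen with earlier results of these embryos known. Nothing is therefore read from these counts, nor from the counts without Ttr and the p-values that follow. Without Ttr, 1 of 5 was lower and 1 higher at an unadjusted p under 0.05 (limma), with a median of -0.20, and KO embryos lay wholly below WT in 2 of 7 and wholly above in 1. Clic6, the one that was lower, was not under 0.05 in the fit without a filter. For Kcne2, Htr2c and Otx2 the exact permutation test of the difference in means, two-sided, gave p = 0.0286, the smallest that 3 against 4 embryos allow. For Clic6 it gave 0.0857, for Lmx1a 0.143, for Folr1 0.343 and for Gdf7 0.600 (exact permutation test).

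Other genes of the choroid plexus were taken from a list of 21, of which 20 were in the table and 8 averaged 1 FPKM or more. None of the 8 was called. At an unadjusted p under 0.05 (limma), 1, Aqp1, was lower in KO embryos, where 6.19% of all genes tested were. Of the 8 log2 differences 7 were negative and 1 positive, with a median of -0.20, beside 0.01 over all genes tested. Of the 20 genes KO embryos lay wholly below WT embryos in 3 and wholly above in none. Over all genes in the table the shares were 5.43% below and 4.68% above. The list was chosen with earlier results of these embryos known, so the counts are a description. Aqp1 measured 3.12, 3.68 and 2.25 FPKM in KOAC8-6, KOAC10-5 and KOAC10-8 and 6.20, 3.84, 5.96 and 4.17 FPKM in KOAC8-1, KOAC10-7, KOAC9-1 and KOAC10-2 (log2 difference -0.58, adjusted p = 0.354, limma). The groups do not overlap, though KOAC10-5 and KOAC10-7 are close, and Aqp1 is also made by red blood cells and other tissues.

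The other 2 genes without overlap average under 1 FPKM and are named after their values were seen. Kcnj13, a potassium channel of the plexus epithelium, measured 0.209, 0.173 and 0.130 FPKM in the KO embryos and 0.328, 0.376, 0.414 and 0.50 FPKM in the WT embryos, 42.1% of WT on average, and rests on a mean of 21.5 normalized counts. Slc4a5, a sodium bicarbonate cotransporter, measured 0.533, 0.726 and 0.461 FPKM in KO embryos against 0.789, 0.885, 1.48 and 0.896 FPKM in WT embryos, 56.7% of WT. More abundant genes of the list are expressed by other tissues of the embryo too. Enpp2 (autotaxin) differed by -0.19, Sostdc1 (a BMP and WNT antagonist) by 0.09, Trpm3 by -0.20 and Wfikkn2 by -0.34 on the log2 scale, each with overlapping groups and an adjusted p of at least 0.528 (limma). The summed level of the list was 34.0 to 40.2 FPKM in KO embryos against 40.5 to 48.6 FPKM in WT embryos, and without Aqp1 the groups overlap (31.7 to 36.5 FPKM against 34.3 to 42.6 FPKM).

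The program of multiciliated cells, which the plexus epithelium shares, was low in all embryos. Of 6 genes 2 were tested and neither was called or had an unadjusted p under 0.05 (limma). Foxj1, the ciliogenesis factor, measured 2.27 to 3.35 FPKM in KO embryos against 3.11 to 3.76 FPKM in WT embryos, with a log2 difference of -0.20. Of the 6 genes KO embryos lay wholly below WT embryos in 2, Gmnc and Ccno, at 82.0% and 70.5% of the WT mean. The same held for 5.43% of all genes in the table.

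**Figure D3:**
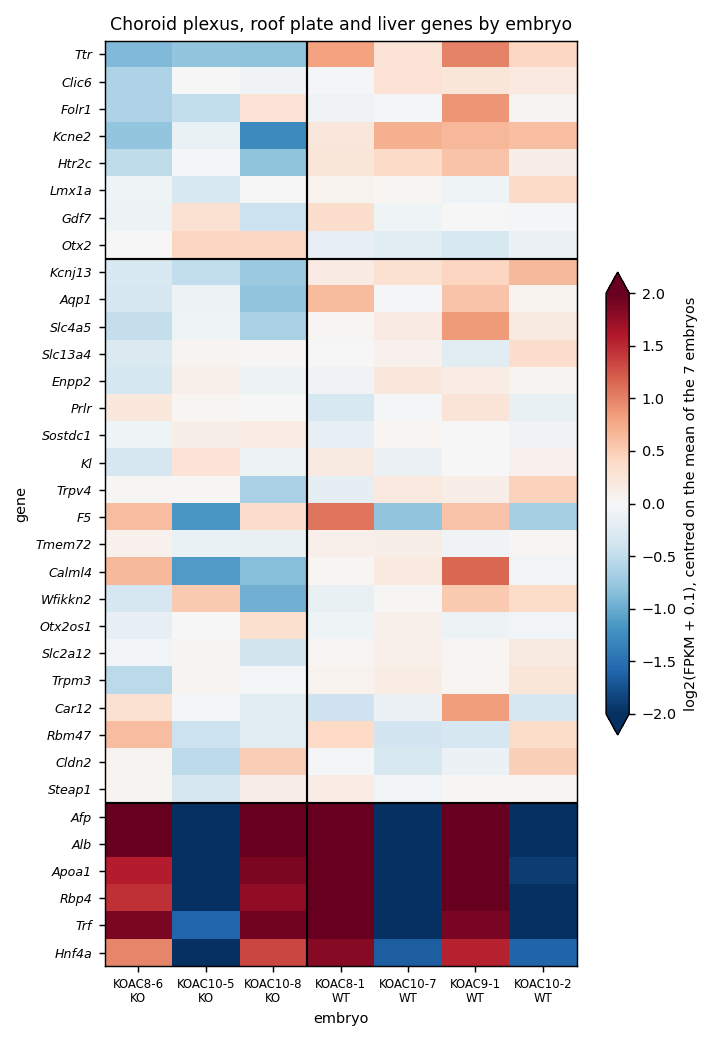
Heat map of log2(FPKM + 0.1), centred on the mean of the 7 embryos, for the 8 genes (top), 20 other choroid plexus genes (middle) and 6 genes of the liver (bottom), with KO embryos left of the vertical line. Afp, Alb, Apoa1, Rbp4, Trf and Hnf4a are high in KOAC8-6, KOAC10-8, KOAC8-1 and KOAC9-1 and low in the other 3 embryos, while Ttr, Kcne2 and Htr2c split at the line between KO and WT; colours are capped at 2 in either direction.

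Roof plate and cortical hem genes other than Lmx1a and Gdf7 differed in both directions. All 20 of the list were tested, and none was called. At an unadjusted p under 0.05 (limma), 6 were higher in KO embryos (Wnt1, Wnt3a, Wnt8b, Rspo2, Zic2 and Zic5) and 1 was lower (Wnt2b), named here after their values were seen. Among all genes tested 5.27% were higher and 6.19% lower at that p. The median log2 difference was 0.10, with 13 positive and 7 negative. KO embryos lay wholly above WT embryos in 3 of the 20 (Wnt1, Wnt3a and Zic5) and wholly below in 2, Wnt2b and the BMP ligand Bmp6, at 69.2% and 82.4% of the WT mean. Over all genes in the table the shares were 4.68% above and 5.43% below. Wnt3a, the WNT ligand of the hem and dorsal midline, measured 2.22, 2.00 and 2.23 FPKM in KOAC8-6, KOAC10-5 and KOAC10-8 and 1.64, 1.56, 1.52 and 1.63 FPKM in the WT embryos KOAC8-1, KOAC10-7, KOAC9-1 and KOAC10-2 (log2 difference 0.29, adjusted p = 0.286, limma). Wnt2b, a ligand of the hem and eye margin, measured 2.14, 1.58 and 1.65 FPKM in KO embryos against 2.52, 2.79, 2.57 and 2.48 FPKM in WT embryos (log2 difference -0.37, adjusted p = 0.286, limma). The groups do not overlap for either, and the directions are opposite. The most abundant genes of the list, Wls, Msx1, Zic1 and Zic4, differed by -0.10, 0.22, 0.19 and 0.00, with overlapping groups.

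The higher level of Otx2 went with that of genes of the early neural tube. Of 7 neural progenitor genes, 6 were higher in KO embryos at an unadjusted p under 0.05 (limma), where 5.27% of all genes tested were. Of the 7, 0 were called, and the median log2 difference was 0.44. The list was chosen with earlier results of these embryos known, so the counts are a description. Sox2, the progenitor factor, measured 53.4, 56.5 and 74.5 FPKM in KOAC8-6, KOAC10-5 and KOAC10-8 and 39.9, 43.2, 40.5 and 50.3 FPKM in KOAC8-1, KOAC10-7, KOAC9-1 and KOAC10-2 (log2 difference 0.48, adjusted p = 0.310, limma). Pax6, a factor of forebrain and eye progenitors, measured 25.9, 31.7 and 34.3 FPKM in KO embryos against 21.1, 19.5, 20.8 and 23.8 FPKM in WT embryos (log2 difference 0.50, adjusted p = 0.274, limma). The KO embryos lie above the WT embryos for both genes, with KOAC8-6 the closest to WT, as for Otx2. Such separation held for 3 of the 7 genes (Sox2, Pax6 and Nes), against 4.68% of all genes in the table. For Sox1, Sox3, Hes5 and Fabp7 the groups overlap. Fabp7, the most abundant of the 7, had a log2 difference of -0.02 (adjusted p = 0.932, limma). The summed level of the 7 was 661 to 740 FPKM in KO embryos against 598 to 683 FPKM in WT embryos, and their part in the Otx2 difference was not tested. Of 7 neuronal genes 0 were called and 0 had an unadjusted p under 0.05, with a median of -0.09.

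Among 12 genes that share territory with Otx2 in brain and eye, 11 were in the table and 8 were tested, with 0 called and a median of 0.22. At an unadjusted p under 0.05 (limma), 2 were higher (Sox2 and Otx1), where 5.27% of all genes tested were. Otx1, the paralog of Otx2, measured 7.20, 10.3 and 12.4 FPKM in KO embryos against 5.60, 6.23, 6.54 and 7.87 FPKM in WT embryos, with overlap between KOAC8-6 and KOAC10-2. Lhx2, a forebrain and eye factor, differed by -0.03.

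**Figure D4:**
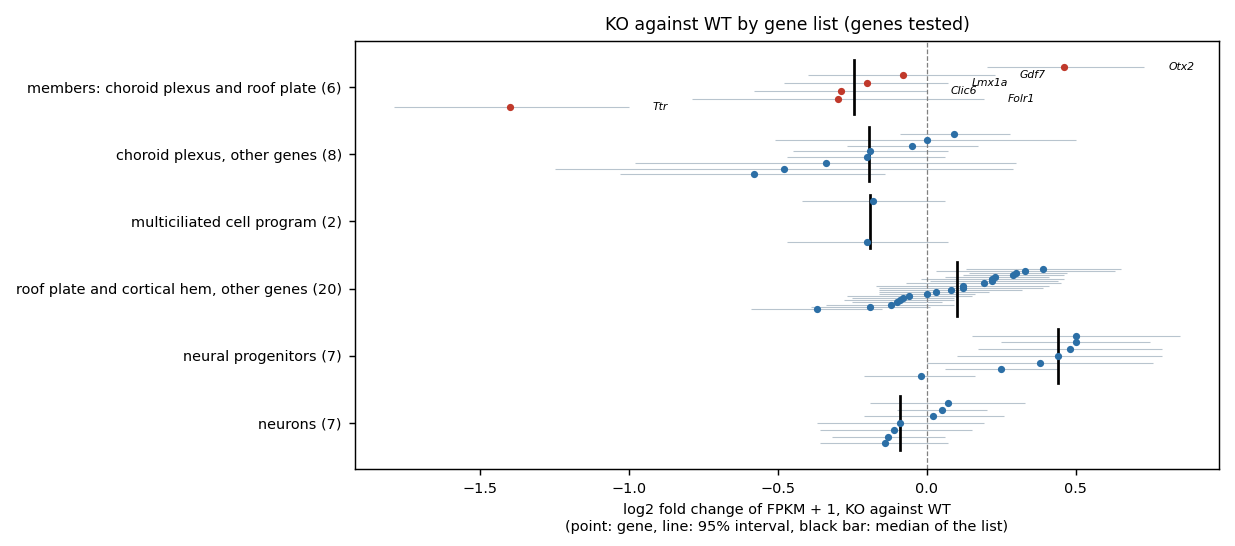
Log2 fold change of FPKM + 1 between KO and WT embryos (horizontal axis; negative is lower in KO) for the tested genes of 6 lists, each point a gene, each line its 95% interval from limma and each black bar the median of a list. The medians are -0.25 for the 6 genes of the top row, -0.20 for the other choroid plexus genes, -0.19 for the multiciliated program, 0.10 for the roof plate and hem, 0.44 for the neural progenitors and -0.09 for the neurons.

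The partners of transthyretin and of KCNE2 were followed in the same way. Of 11 genes of thyroid hormone and retinol transport, 6 were tested and 0 were called. At an unadjusted p under 0.05 (limma), 2 were lower, where 6.19% of all genes tested were. Thra, a thyroid hormone receptor, was among the 2 at a log2 difference of -0.39 (adjusted p = 0.421, limma). Stra6, through which cells take up retinol, differed by 0.05 (adjusted p = 0.824, limma).

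Of 7 subunits and transporters that work with KCNE2 or belong to its family, 5 were tested and 0 were called. At an unadjusted p under 0.05 (limma), 1 was higher and 1 lower, where 5.27% and 6.19% of all genes tested were. Kcne3, a related accessory subunit, measured 9.40, 9.95 and 11.9 FPKM in KOAC8-6, KOAC10-5 and KOAC10-8 and 3.93, 4.46, 3.59 and 5.90 FPKM in KOAC8-1, KOAC10-7, KOAC9-1 and KOAC10-2. Every KO embryo lies above every WT embryo, at 2.33-fold on average (log2 difference 1.07, SE 0.15, adjusted p = 0.177, limma). Kcne4, another relative, measured 0.982, 1.27 and 0.508 FPKM in KO embryos against 1.67, 1.67, 2.03 and 1.40 FPKM in WT embryos, lower in every KO embryo (log2 difference -0.50, adjusted p = 0.348, limma). Kcnq1, the pore-forming channel that KCNE2 can join, differed by -0.45 with overlapping groups (adjusted p = 0.545, limma). The family members of KCNE2 thus differed in opposite directions, each short of the threshold.

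Genes of kidney and gut epithelium, where several plexus genes are also used, gave 0 calls among 5 tested of 8, 0 at an unadjusted p under 0.05 (limma) and a median of 0.08.

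The profiles most like that of Ttr were sought over the 7 embryos. Among 889 genes with an SD of at least 0.5 on the log2(FPKM + 1) scale, the 10 closest were Acta1, H2-Q7, Cytl1, Tnnt1, Hbb-bt, Trim10, Hsd3b6, Mymk, Hba-a1 and Ncf4, at distances of 0.222 to 0.319. The minimum left out the other 7 members, whose SDs ran from 0.12 (Htr2c) to 0.34 (Kcne2), so that the search could not return them. Only 4 of the 10 were kept with a pseudocount of 0.1, and 4 without KOAC9-1. Acta1, Tnnt1 and Mymk belong to skeletal muscle (actin, troponin and the fusion protein myomaker), and Hbb-bt and Hba-a1 are globins of red blood cells. For all 10 the KO values lay below the WT values without overlap, against 5.43% of all genes in the table. Picking by closeness to Ttr, whose own groups do not overlap, favours this, so nothing is read from it. Acta1 measured 12.8, 13.0 and 8.04 FPKM in KOAC8-6, KOAC10-5 and KOAC10-8 and 29.7, 24.3, 43.5 and 25.6 FPKM in KOAC8-1, KOAC10-7, KOAC9-1 and KOAC10-2. Hbb-bt measured 308, 297 and 230 FPKM in KO embryos against 1040.3, 507, 1432.6 and 853 FPKM in WT embryos. Both are highest in KOAC9-1 and KOAC8-1, as is Ttr. The globins share sequence with near-identical copies, so the split of reads between them is uncertain. These genes were picked for lying near Ttr, no list of muscle or blood genes was examined, and their part in the Ttr difference was not tested.

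The genes closest to the other 7 were picked from 16076 genes with no minimum SD. Those of Kcne2 were Col5a1, Gxylt2, Col16a1, Pcp4 and Lmcd1 at distances of 0.079 to 0.099. All 5 were lower in every KO embryo, which picking by closeness to Kcne2 favours. Those of Otx2 were Gm20421, Pax6, Gm47879, Dbx1 and Six3os1 at 0.071 to 0.087, of which Pax6 and Dbx1 are homeodomain factors of neural progenitors. Clic6 had Enpp2 among its 5, at 0.068, as well as Smim4, Sdhaf4 and Aplnr. Those of Folr1 were Cryab, Rpl36-ps12, Gm10252, Myl9 and Rims1, and those of Htr2c were Sec23a, Tmed3, Bcl9l, Crtc1 and Pccb. Lmx1a had Ppp1r18os, Sncg, Tmem120a, Pus7l and 1190005I06Rik, and Gdf7 had Zfp874b, Gm16183, Fam120c, Rgs8 and Kcnn3. Genes of small amplitude find close matches among many genes, so these lists describe the embryos and no more.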

How the data were processed

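The authors deposited FPKM values per gene and embryo from TruSeq RNA v2 libraries of 7 whole embryos. Per the labels, the submitters' processing notes name Salmon, DESeq2, MultiQC and GRCm38, and how each was used is not given in the sources used here. All FPKM columns were mapped to an embryo. A mean signal per gene (normalized counts over the 7 embryos, made by the authors) was used only to estimate counts. The authors' own fold changes, standard errors, p-values and adjusted p-values were not used.

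Counts per embryo were estimated from the steps between low FPKM values, with 28.5 to 58.3% of low values within 0.02 of a whole number. The genotypes were compared on log2(FPKM + 1) in R 4.3.3 by limma 3.58.1 (lmFit, then eBayes with a trend) for genes averaging 1 FPKM or more, adjusted over all genes by the Benjamini-Hochberg method at 0.05, and single values with exact permutation over 35 arrangements. Nothing says how the embryos relate by litter, so p-values measure the spread between these embryos. The limma fit was tested on simulated data drawn separately for each gene. Such data lack the split by Afp that liver genes share here, so the test does not measure false calls in these embryos.

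Named genes are the 8 members, Afp, up to 5 of the highest mean FPKM per list, the 10 genes most like Ttr and the 5 most like each other member; others were chosen after their values were seen, and some genes are not reported here. The members and lists were chosen with earlier results of these data known. Alternatives were another pseudocount, filter and scaling, the series number as a block, Afp or Xist as a covariate, and leaving out embryos.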

Additional observations from a re-analysis of the deposited data

Results flagged for a closer look

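Among 81 genes of the lists, 4 had a WT embryo far from the other 3, with a gap to the nearest value that, as a share of the range over WT, was above Dixon's 95% critical value for 4 samples. About 1 in 20 genes would pass by chance, which is 4.0 of 81. For Folr1 the share was 0.907, with KOAC9-1 highest at 2.71 FPKM. For Gdf7 it was 0.838, with KOAC8-1 highest at 1.96 FPKM. For Apoa4, an apolipoprotein, it was 0.849 and for Pmel, a pigment cell gene, 0.878, both highest in KOAC10-2 (0.683 and 5.55 FPKM).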

How the results depend on the processing

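Of the 6 tested members, 0 were called, but 1, Ttr, was called with log2 Afp as a covariate (-1.468, adjusted p = 0.0374, limma) and without the 3 embryos of low Afp (-1.685, adjusted p = 0.0386, limma), a choice made after seeing the data. The cause was not tested. The other 14 alternatives changed no call of a member. Leaving out 1 embryo moved Clic6, Folr1 and Lmx1a by over 1.5 times, as given beside each. Leaving out each embryo gave Ttr differences of -1.508 to -1.27. Gdf7 changed sign without the KO embryo KOAC10-8, and leaving out each embryo gave it log2 differences of -0.205 to 0.029 and FPKM differences of -0.346 to 0.0562. The exact permutation tests of 6 embryos cannot go below p = 0.0667 or 0.1, so none passed there. Of the 10 genes most like Ttr, only 4 were kept with a pseudocount of 0.1 and 4 to 9 when an embryo was left out. Over all genes 6 were called, 12 without KOAC8-1, 10 with the Afp covariate and 17 without the 3 embryos of low Afp. The labels give no replicate numbers, so embryos were not paired by number. The series number as a block, which compares genotypes within series, gave Ttr -1.273 (adjusted p = 0.215, limma). Depth limits Folr1, Kcne2, Htr2c and Kcnj13, at under 100 estimated counts in most embryos.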
